A study of Mus musculus with 69 samples.

Results

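A set of 10 genes that carry out or regulate calcium and magnesium reabsorption in the kidney tubule were followed in whole kidneys of NZB/W F1 mice, a cross that develops lupus-like nephritis with age. The 10 genes were listed by symbol for their role, and all 10 were found among the 24538 gene symbols in the count files. They are Trpv5, Calb1, S100g, Slc8a1 and Atp2b1 (calcium through the cell), Trpm6 and Egf (magnesium through the cell), and Casr, Cldn16 and Cldn19 (calcium and magnesium between cells). RNA-seq of perfused kidneys covered 65 original libraries. Of these, 30 were from young mice of 12 weeks, 27 from nephritic mice of 30 to 45 weeks and 8 from mice in remission. By the paper's account, the remission mice were 36 to 50 weeks old when treated, and so older at harvest. A further 4 libraries repeated mice of the first 2 groups. Kidneys were collected at Zeitgeber times (ZT) 0, 4, 8, 12, 16 and 20, with lights on at ZT0 and off at ZT12. The young groups held 7, 4, 4, 7, 4 and 4 mice in that order and the nephritic groups 7, 4, 4, 6, 3 and 3. Nephritic mice were taken 2 to 3 weeks after proteinuria above 300 mg/dl began, with a blood urea nitrogen limit of 25 mg/dl. Remission was induced by 1 dose of cyclophosphamide at 50 mg/kg with 6 doses of CTLA4Ig (200 µg) and anti-CD40L (250 µg) over 2 weeks, and kidneys were taken 8 weeks later, 4 at ZT0 and 4 at ZT12, at a proteinuria of at most 30 mg/dl. Diseased mice were also older, so age and diagnosis cannot be told apart.

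Calcium enters distal tubule cells through the apical channel Trpv5, is carried in the cytosol by calbindins and leaves across the basolateral membrane through a sodium-calcium exchanger and a calcium pump, a route driven by vitamin D and parathyroid hormone. Magnesium enters the distal convoluted tubule through Trpm6, which the growth factor Egf stimulates. In the thick ascending limb both ions pass between the cells through a pore of Cldn16 and Cldn19, and Casr, the calcium sensor, lowers that flux.

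The promoters (250 bases before to 50 after each start site, RefSeq, build GRCm38.p6) of 9 of the 10 members were found, in 12 windows, and were searched on both strands for CACGTG (the E-box that clock proteins bind), CACGTT, TTATGTAA and TTATGCAA (D-boxes) and AGGTCA (a core of nuclear receptor motifs, among them that of the vitamin D receptor). A match was found in 3 windows. The Atp2b1 window is shown because that gene varied with time in young mice under every setting tried, and the S100g window because S100g is a textbook vitamin D target. The capitals mark the match, which is a description of letters and not a site. The Atp2b1 window lies at chr10:98914392-98914691 on the plus strand, with CACGTG starting 9 bases after the start site, and the S100g window at chrX:162964550-162964849 on the minus strand, with AGGTCA at 220 bases before it and, on the opposite strand, at 107 bases before it.
Atp2b1: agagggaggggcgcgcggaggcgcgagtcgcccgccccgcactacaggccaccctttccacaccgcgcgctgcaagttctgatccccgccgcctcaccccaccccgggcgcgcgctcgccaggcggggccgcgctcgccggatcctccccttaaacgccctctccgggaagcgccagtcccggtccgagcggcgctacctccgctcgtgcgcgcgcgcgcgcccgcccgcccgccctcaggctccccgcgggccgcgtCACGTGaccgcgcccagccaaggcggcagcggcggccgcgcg
S100g: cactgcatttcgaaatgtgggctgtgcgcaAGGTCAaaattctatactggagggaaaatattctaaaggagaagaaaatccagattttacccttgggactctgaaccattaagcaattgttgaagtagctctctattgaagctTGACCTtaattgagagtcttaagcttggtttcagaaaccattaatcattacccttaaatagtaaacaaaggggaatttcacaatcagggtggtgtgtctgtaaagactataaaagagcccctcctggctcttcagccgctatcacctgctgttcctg
Of 32841 promoters, 7.15% held CACGTG and 16.3% held AGGTCA, so neither match is rare. CACGTT (4.69% of promoters) fell in an alternative Egf window and the D-boxes (0.938% and 0.743%) in no member's window.

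In build GRCm38, Trpv5 lies on chromosome 6 (41651661 to 41681224, minus strand) and Calb1 on chromosome 4 (15881264 to 15906709, plus). S100g lies on X (162961992 to 162964599, minus), Slc8a1 on 17 (81373105 to 81738387, minus) and Atp2b1 on 10 (98914630 to 99026143, plus). Trpm6 lies on 19 (18730177 to 18892521, plus) and Egf on 3 (129677574 to 129755322, minus). Casr (36490585 to 36562141, minus) and Cldn16 (26463135 to 26482765, plus) share chromosome 16, and Cldn19 (119255441 to 119262438, plus) is on 4 with Calb1. The counts are per whole gene, so no exon or isoform is told apart.

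Depth ran from 25257530 to 48075977 counts per library in young and nephritic mice and from 13311278 to 21849912 in remission, which was sequenced in a run apart from the other originals, so run and diagnosis cannot be told apart there. Adrenal markers summed to more than 20 CPM in 8 of 30 young libraries and 1 of 27 nephritic libraries (37.9 to 1271 CPM), and to at most 9.83 CPM in the rest, so results were recomputed without those. The 4 nephritic mice of ZT4 included 2 with the smallest difference between any replicate pair (chi-square per gene 4.07, against 1 for sampling noise), so results were also recomputed without the ZT4 mice of both diagnoses. In 1 of the 4 repeats, that of RX11RU (ZT12), the nearest original library was another nephritic mouse, RX11LU of ZT4 (r = 0.991, own mouse 0.978). Whether labels were exchanged across these times was not tested. Mouse names share prefixes, but nothing in the labels says whether these stand for shared litters or cages, so p-values measure the spread between these mice. Sequencing sets 1 and 2 were inferred from these prefixes. In set 1 the prefix went with collection time: CR6 and CRS6 at ZT0, CR3 and HIL5 at ZT12. In the young mice of set 2 the prefix was the collection time itself, such as ZT4. In the nephritic mice of set 2, prefixes such as RX8 spanned collection times.

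Levels below are read counts scaled to library size (CPM), and differences are log2 fold changes with their standard errors. Against young mice, 5 of the 10 members were lower in nephritic kidneys (Calb1, S100g, Slc8a1, Trpm6 and Egf) and 2 were higher (Trpv5 and Cldn16), while Atp2b1, Casr and Cldn19 did not pass the test. Background shares were 33.6% lower and 26.4% higher among 17521 genes, and the median difference was -0.36 over the members and -0.03 over all genes. A count of 6 lower was reached without the adrenal-positive libraries or without ZT4, since Casr then passed, as it did with limma-trend (adjusted p = 0.0497) and without the set covariate (0.0499), and Cldn16 no longer passed without ZT4 (0.16, adjusted p = 0.0690). In bulk kidney, fewer cells of a type and less RNA per cell cannot be told apart.

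**Figure D1:**
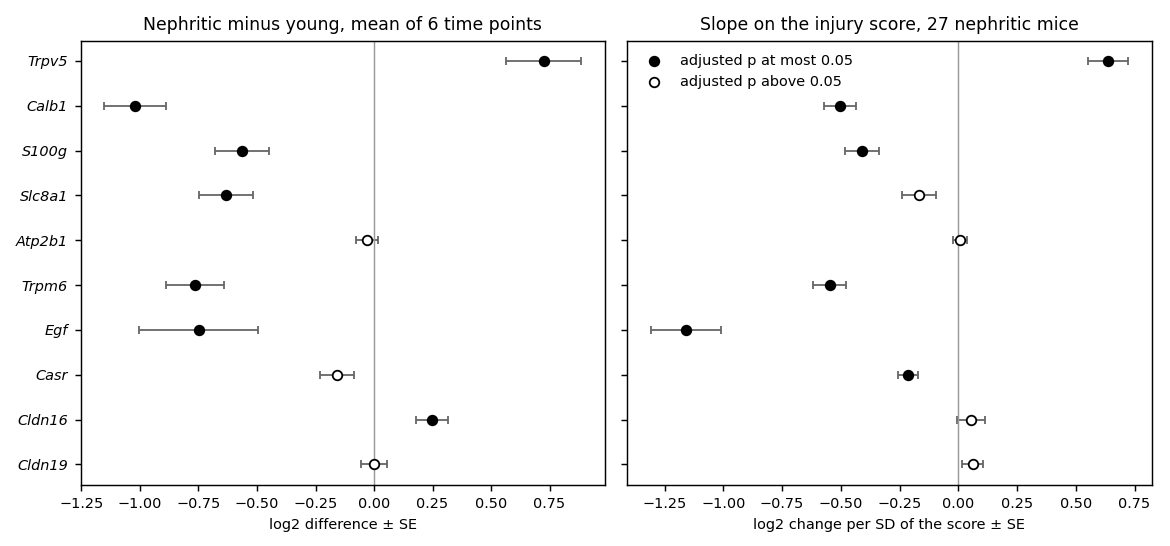
The left panel gives the log2 difference in level between nephritic and young mice and the right panel the log2 change per SD of the injury score for each of the 10 members, with bars of 1 standard error and filled points past the threshold. Calb1 has the lowest level difference, -1.02, and Trpv5 the highest, 0.72.

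Trpv5, the apical calcium channel, had a lowest, median and highest level of 7.05, 18.1 and 29.5 CPM in young mice and of 15.3, 26.8 and 148 CPM in nephritic mice. The ranges overlapped, but 9 of 27 nephritic mice were above every young one, with coefficients of variation of 23.4% in young and 80.6% in nephritic mice. The difference was 0.72 (SE 0.16, adjusted p = 0.000138, edgeR quasi-likelihood test), a 1.65-fold level. Within a library, the log2 ratio of Trpv5 to Calb1 reads had a median of -4.86 in young, -3.04 in nephritic and -4.39 in remission mice. In 22 of 27 nephritic and 4 of 8 remission mice it was above every young mouse. Trpv6, the related epithelial calcium channel, was higher too (1.05, SE 0.18, adjusted p = 2.11e-06), from a median of 3.43 CPM to 6.51.

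**Figure D2:**
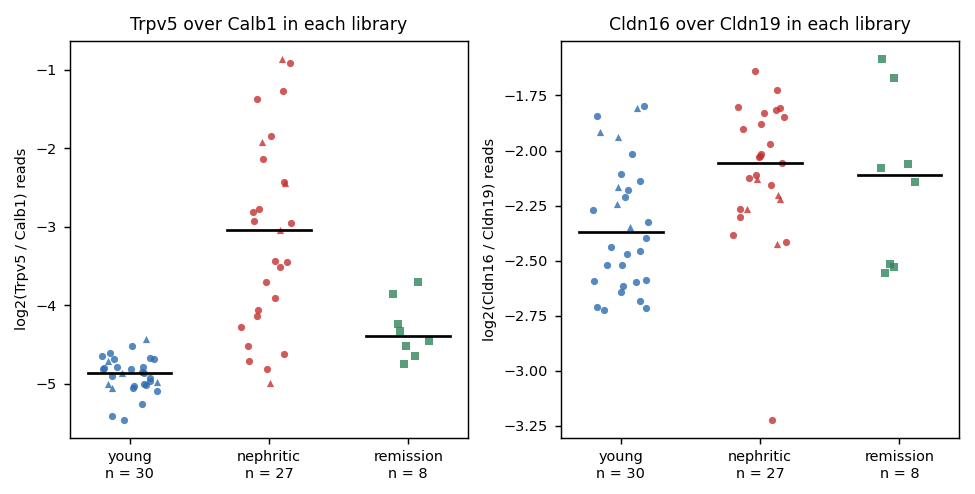
Each point is a mouse, with the log2 read ratios of Trpv5 to Calb1 and of Cldn16 to Cldn19 on the vertical axes, bars at medians and markers by sequencing set (triangle set 1, circle set 2, square remission run). In the Trpv5 to Calb1 ratio 22 of 27 nephritic mice stand above every young mouse.

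Calb1, the large calbindin buffer, had 299, 517 and 963 CPM in young kidneys and 104, 225 and 731 CPM in nephritic kidneys (lowest, median, highest), and 17 of 27 nephritic mice were below every young one. Its difference was -1.02 (SE 0.13, adjusted p = 8.58e-09), or 49.3% of the young level. S100g, the small calbindin, went from 274, 522 and 784 CPM to 121, 321 and 679 (lowest, median, highest), with 10 of 27 below all young mice. S100g differed by -0.56 (SE 0.12, adjusted p = 4.43e-05). Without ZT4 the differences of Calb1 and S100g were -0.75 and -0.35, and both still passed.

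Slc8a1, the exchanger, had values of 119, 289 and 608 CPM in young and of 72.3, 202 and 467 CPM in nephritic mice, with 3 nephritic mice below the young range and a difference of -0.63 (SE 0.11, adjusted p = 5.96e-06). Atp2b1, the pump, had 71.5, 98.7 and 154 CPM against 79.7, 98.2 and 135, and every nephritic mouse lay inside the young range (-0.03, SE 0.05, adjusted p = 0.615).

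Trpm6, the magnesium channel, had 40.8, 51.7 and 80.7 CPM in young mice and 14.1, 28.1 and 76.7 in nephritic mice, and 18 of 27 were below every young mouse. Its difference was -0.77 (SE 0.12, adjusted p = 7.4e-07). Egf, the growth factor, had 1418, 1894 and 4079 CPM against 89.2, 1331 and 2402, with 15 of 27 below the young range and a difference of -0.75 (SE 0.25, adjusted p = 0.0099). Egf had a coefficient of variation of 34.8% in young and 56.7% in nephritic mice. At ZT0 and ZT12, the 2 times that both sequencing sets hold, the nephritic to young log2 ratio of Egf was -2.55 in set 1 and -0.50 in set 2, and of Casr -0.88 and -0.18. The ratio was larger in set 1 for Trpv5 too (1.75 and 0.58), and larger in set 2 for Calb1 (-0.58 and -1.51), S100g (-0.30 and -0.83), Slc8a1 (-0.15 and -1.13) and Trpm6 (-0.69 and -0.93). It had opposite signs in the sets for Atp2b1 (-0.26 and 0.27), Cldn16 (-0.09 and 0.42) and Cldn19 (0.10 and -0.06), and the difference between sets was not tested.

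Casr, the sensor, had 65.3, 102 and 147 CPM against 53.4, 97.2 and 125 (-0.16, SE 0.07, adjusted p = 0.0606). Cldn16, a claudin of the pore, had 9.06, 12.4 and 17.5 CPM against 6.75, 15.9 and 28.1, with 6 nephritic mice above the young range and 1 below, and a difference of 0.25 (SE 0.07, adjusted p = 0.00187). Cldn19, its partner, had 46.1, 62.1 and 83.7 CPM against 47.7, 63.7 and 98.0 (-0.00, SE 0.05, adjusted p = 0.994).

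**Figure D3:**
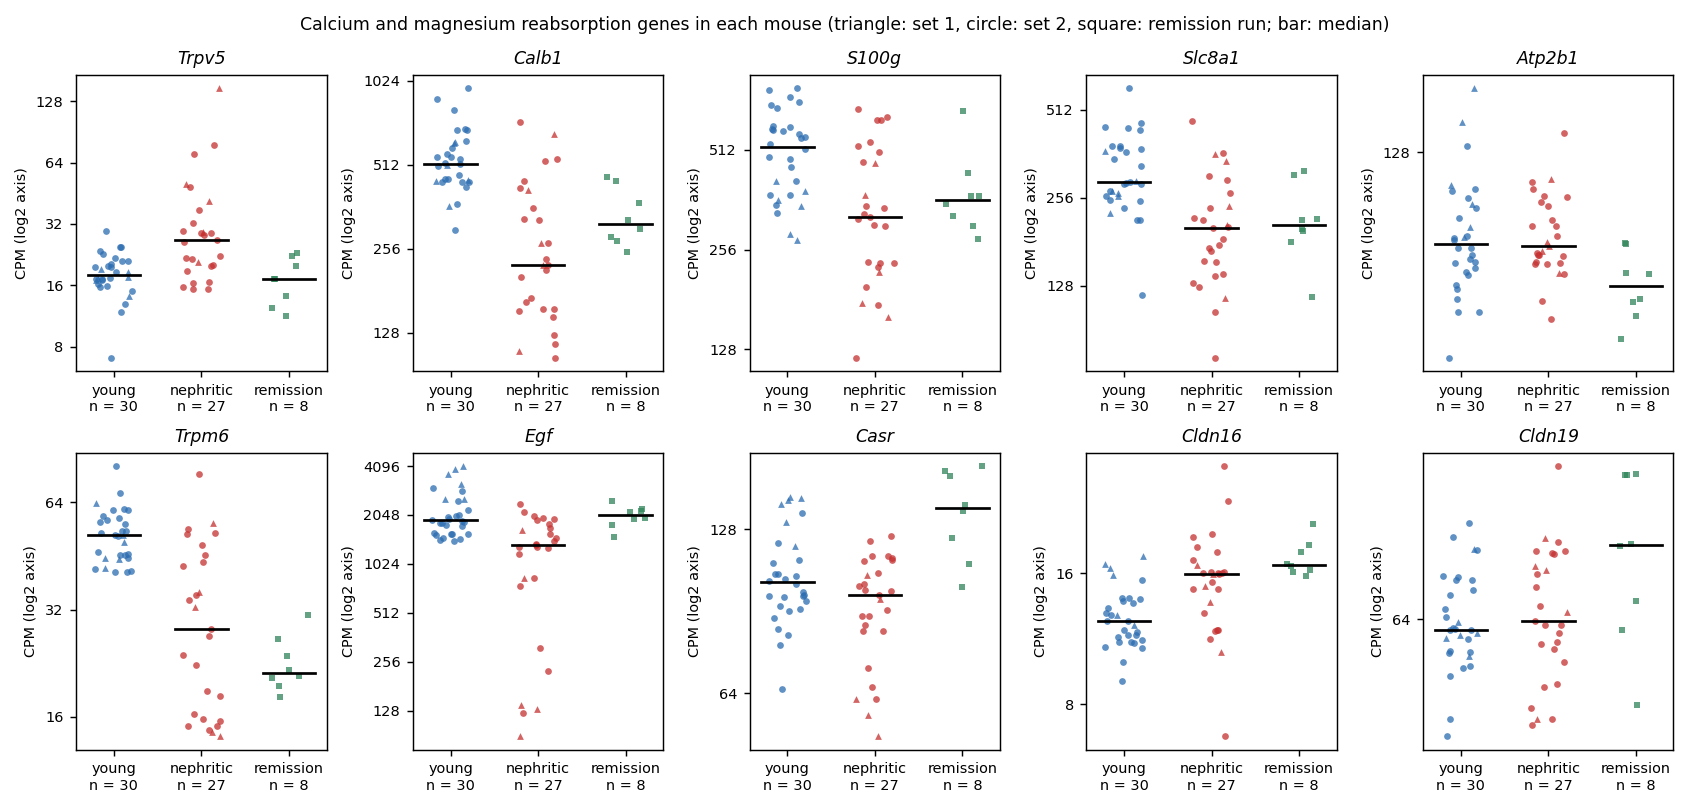
Every point is a mouse, with the level of each of the 10 members in CPM on a log2 axis, the 3 diagnoses side by side and bars at medians; triangles are sequencing set 1, circles set 2 and squares the remission run. Trpm6 in the 8 remission mice lies wholly below the young mice, and in Atp2b1 every nephritic mouse lies inside the young range.

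Tested time by time, the difference passed for 18 of 60 member-time pairs. At ZT0, 5 members passed (39.5% of all genes): Calb1, Slc8a1, Trpm6 and Casr were lower and Trpv5 was higher (1.47). The 7 nephritic mice of ZT0 had Trpv5 at 15.7, 16.7, 20.9, 50.2, 70.8, 77.7 and 148 CPM, 4 of them high and 3 in the young range. At ZT4, 6 passed (30.3%): Calb1, S100g, Slc8a1 and Trpm6 were at -2.37, -1.62, -1.64 and -1.90, and Cldn16 and Cldn19 were higher by 0.68 and 0.38. The 4 nephritic mice of ZT4 had Calb1 at 116, 153, 156 and 156 CPM, below the lowest young mouse of that time at 544. At ZT12, 6 passed (50.0%), all lower: Calb1, S100g, Slc8a1, Trpm6, Egf and Casr, of which Egf (-0.46, adjusted p = 0.481) and Casr (-0.00, adjusted p = 0.991) did not pass in set 2 alone. In set 2 alone, Atp2b1 (0.38, adjusted p = 0.00224) and Cldn16 (0.51, adjusted p = 0.0181) were higher at ZT12. Cldn16 was also higher there with DESeq2 (0.32, adjusted p = 0.0447). At ZT16 only Calb1 passed (17.7% of all genes; -1.08). Without the adrenal-positive libraries, which leaves 1 young mouse at ZT16, its difference was -1.36 (adjusted p = 0.166), and without the ZT4 mice it was -1.08 (adjusted p = 0.0516). The ZT0 call of Slc8a1 was lost without RX12RU or ZT00, that of Trpm6 without RX10LU or without the adrenal-positive libraries (-0.57, adjusted p = 0.0801), that of Casr in set 2 alone (-0.35, adjusted p = 0.0528), the ZT4 call of Cldn19 without RX1OLL or ZT40, and the ZT12 calls of Egf and Casr without any of 3 mice each (HIL5LL, HIL5RU and RX8RU for Egf, and CR3RL, HIL5LL and HIL5RU for Casr). At ZT8 (3.66%) and ZT20 (5.48%) no member passed.

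Over the 6 times, 7 of 10 members varied with time in young mice (39.8% of 16521 genes): Trpv5, Calb1, Slc8a1, Atp2b1, Trpm6, Egf and Cldn19. No name prefix of young mice spanned collection times, so time and anything shared by a prefix cannot be told apart there. Calb1 did not pass without the adrenal-positive libraries (adjusted p = 0.0853), Slc8a1 (0.0534) and Cldn19 (0.0547) without ZT4, or Cldn19 without any of ZT200, ZT20RL, ZT20RU, ZT8LL and ZT8RU. Of these 7, 4 had the peak of a fitted cosine in the light phase, at 2.41 h (Trpm6, amplitude 0.23 log2, SE 0.05), 3.98 h (Slc8a1, 0.41, SE 0.10), 4.61 h (Calb1, 0.33, SE 0.09) and 6.23 h (Trpv5, 0.31, SE 0.10). Atp2b1 peaked at 22.7 h (0.18, SE 0.04, adjusted p = 0.000893 for time), Egf at 15.2 h and Cldn19 at 18.8 h. The cosine did not pass for Egf in young mice (adjusted p = 0.0674), and Trpv5 did not pass without the set covariate (0.0694). S100g, outside these 7, passed in 3 of 10 alternatives: the cosine (0.00842, peak at 5.33 h, amplitude 0.32, SE 0.08), DESeq2 (0.0159) and limma-trend (0.0459). In nephritic mice 5 of 10 varied with time (21.6% of 16872): Calb1, S100g, Slc8a1, Atp2b1 and Cldn16. The call of Atp2b1 (adjusted p = 0.0495) was lost in 21 of 27 fits that left out 1 mouse. Trpm6 lay as near the threshold on the other side (adjusted p = 0.0503). It passed in 4 of 10 alternatives, and Atp2b1 in 3 of 10. Without ZT4 only Slc8a1 varied with time in nephritic mice, and with both diagnoses in 1 fit 8 members varied in nephritic and only Atp2b1 in young mice. The share of all genes passing in that joint fit is not given here. By p-value, Casr ranked 4803 of 17521 genes in nephritic mice there and passed, while Slc8a1 ranked 4802 in young mice and did not. The difference in rhythm itself passed for 4 of 10 (6.27%): Calb1 (adjusted p = 0.00958), S100g (0.0370), Slc8a1 (0.0313) and Trpm6 (0.0376). All 4 had low nephritic values at ZT4, where young mice were high: Calb1 had a young mean of 713 CPM (SD 155, n = 4) and a nephritic mean of 145 (SD 19.4, n = 4) at ZT4, and 424 (SD 37.8, n = 4) and 494 (SD 211, n = 3) at ZT20.

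The other members with a difference in rhythm were also low at ZT4 in nephritic mice, where Trpm6 and S100g had their lowest nephritic mean, while Slc8a1 was as low at ZT12. At ZT4 the young mean of Trpm6 was 60.9 ± 4.96 CPM and the nephritic mean 17.2 ± 1.69 CPM (SD, n = 4 each), and the ranges did not overlap. For Slc8a1 these means were 399 ± 61.3 and 135 ± 26.4 CPM, and for S100g 636 ± 71.7 and 217 ± 28.6 CPM. At ZT8 Trpm6 was 41.4 CPM (SD 13.3, n = 4) against 51.5 CPM (SD 6.94, n = 4), and at ZT20 it was 52.1 CPM (SD 22.1, n = 3) against 48.9 CPM (SD 4.03, n = 4). Cldn16 was at its nephritic high at ZT4, 21.4 CPM (SD 4.53, n = 4) against 12.7 CPM (SD 0.443, n = 4) in young mice, and Cldn19 likewise at 81.7 CPM (SD 11.2, n = 4) against 59.7 CPM (SD 3.02, n = 4). Egf was highest in young mice at ZT12, 2974 CPM (SD 926, n = 7), and had a nephritic mean there of 1151 CPM (SD 923, n = 6), which ran from 131 to 2135 CPM. The difference in rhythm did not pass for any member without the ZT4 mice (0 of 10, adjusted p from 0.129 to 0.439 for these 4). Trpm6 did not pass without the adrenal-positive libraries, a fit that left 1 young mouse at ZT16, while Cldn19 did. With limma-trend neither Trpm6 (adjusted p = 0.0632) nor S100g (0.0661) passed, nor did S100g without the set covariate (0.0739). Cldn19 passed in set 2 alone (0.0390) and with DESeq2 (0.0197). With 1 mouse left out, calls were lost in 14 of 57 fits for Trpm6, 10 for S100g and 4 for Slc8a1. The injury score, made from the tubular injury genes Lcn2 and Havcr1, was 0.11 to 0.61 at ZT4, with a median of 0.33, and -1.12 to 0.38 at ZT8, with a median of -0.72, against -1.58 to 1.69 over all nephritic mice, and its part in these time differences was not tested.

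**Figure D4:**
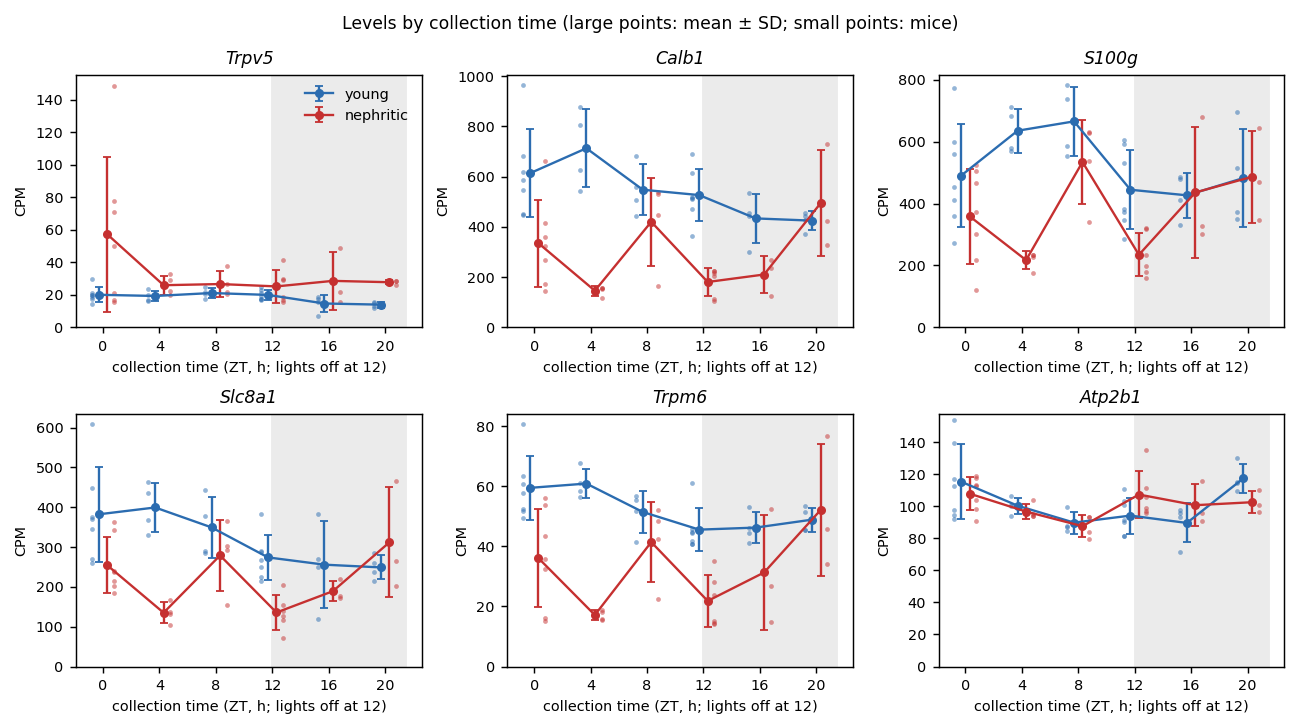
Levels of 6 members in CPM are plotted by collection time (ZT, h; shaded from lights off), with small points for mice, large points and bars for mean and SD, and young in blue and nephritic in red. Calb1 has a nephritic mean of 145 CPM and a young mean of 713 CPM at ZT4.

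Against nephritic mice at the same 2 times, the 8 remission mice had 2 members higher (17.1% of 16841 genes), Casr and Cldn19, and 2 lower (20.8%), Trpv5 and Atp2b1. Casr at ZT0 and ZT12 was 100.3, 140.1 and 167 CPM in remission and 53.4, 88.8 and 114 in nephritic mice, and 6 of 8 remission mice were above all nephritic ones (0.80, SE 0.14, adjusted p = 7.25e-05). Trpv5 was 11.3, 17.2 and 23.1 CPM against 15.3, 29.4 and 148 (-1.05, SE 0.32, adjusted p = 0.00985). Atp2b1 (-0.24, SE 0.09, adjusted p = 0.0328) and Cldn19 (0.29, SE 0.11, adjusted p = 0.0320) did not pass when the repeat libraries and a run term were added, nor without the remission mouse s9 (adjusted p = 0.0631 and 0.142). Thick ascending limb markers were also higher, 5 of 5, in this comparison, and their part in the Casr and Cldn19 values was not tested.

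Against young mice, Cldn16 and Cldn19 were higher (21.1%) and Calb1, Slc8a1 and Trpm6 lower (20.5%) in remission. Trpm6 was 18.1, 21.3 and 30.8 CPM in remission, below all 14 young mice (40.8 to 80.7) in 8 of 8 mice, a difference of -1.25 (SE 0.21, adjusted p = 2.52e-05). Calb1 was -0.73 (SE 0.23, adjusted p = 0.0101) and Slc8a1 -0.56 (SE 0.19, adjusted p = 0.0168). Cldn16 was 15.8, 16.7 and 20.7 CPM against 11.0 to 17.5 CPM in young mice of the same times (0.37, SE 0.11, adjusted p = 0.00722), with 3 of 8 above all 14. Without the adrenal-positive libraries Cldn16 (0.23, adjusted p = 0.144) and Slc8a1 (-0.52, adjusted p = 0.0570) did not pass. Cldn19 (0.29, SE 0.10, adjusted p = 0.0258) did not pass without s9 (adjusted p = 0.121). Casr (0.34, adjusted p = 0.0720), S100g (-0.45, adjusted p = 0.0849), Egf (-0.42, adjusted p = 0.554) and Trpv5 (-0.15, adjusted p = 0.725) did not pass. Calb1 in remission, 249, 313 and 462 CPM, lay below all 14 young mice in 5 of 8 and inside the nephritic range in 8 of 8, and its difference from nephritic mice was 0.48 (adjusted p = 0.0920). With 4 repeat libraries and a run term only Trpm6 passed (-0.79, adjusted p = 0.0490), and with 3 of them none did (Trpm6 -0.78, adjusted p = 0.0924). The repeat left out of the latter fit, RX11RU (ZT12), was the repeat nearest to another mouse's original, RX11LU (ZT4). Its Trpm6 was 15.5 CPM, against 36.2 CPM in its own original. The 4 repeats were grouped here with the remission run, and in each of them S100g read higher than in its original, by 0.19 to 0.29 log2.

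Within the 27 nephritic mice, an injury score (the mean of log2 CPM of the tubular injury genes Lcn2 and Havcr1, in SD units) went with 6 of 10 members. Per SD, 5 fell (24.4% of all genes fell): Egf by 1.16 on the log2 scale (SE 0.15, adjusted p = 1.38e-06), Trpm6 by 0.55 (SE 0.07, adjusted p = 1.29e-06), Calb1 by 0.51 (SE 0.07, adjusted p = 2.23e-06), S100g by 0.41 and Casr by 0.21. Trpv5 rose (24.8% rose) by 0.64 (SE 0.09, adjusted p = 2.14e-06). Slc8a1 had -0.17 (adjusted p = 0.0641), and Atp2b1, Cldn16 and Cldn19 were at 0.01, 0.05 and 0.06. Lcn2 ran from 4.79 to 702 CPM across these mice and Havcr1 from 21.8 to 1102 CPM.

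**Figure D5:**
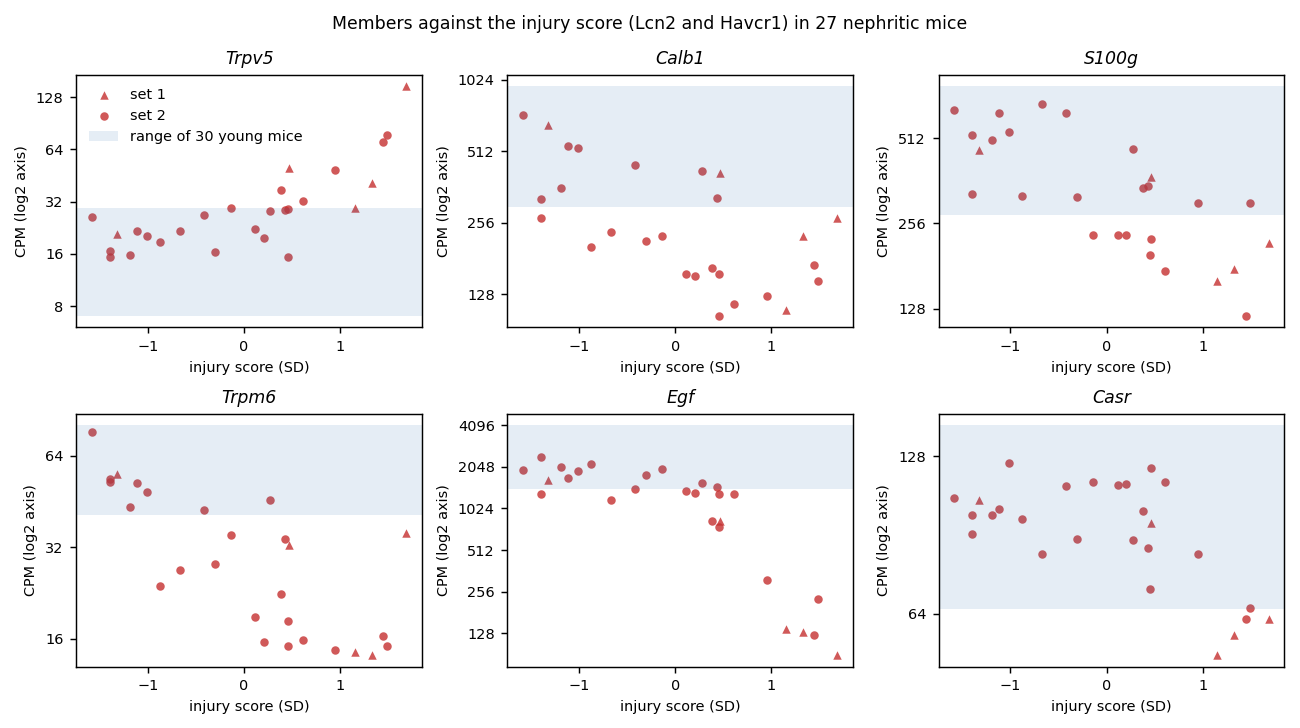
Each of 27 nephritic mice is a point, with the injury score in SD units across and the level of 6 members in CPM on a log2 axis; triangles are set 1, circles set 2 and the band the range of 30 young mice. Egf, Trpm6 and Calb1 lie lower and Trpv5 higher at high scores.

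Among 43 other genes of the pathways tested of 44 listed, 24 were lower (33.6% of all genes) and 9 higher (26.4%) in nephritic kidneys. Kl, the klotho gene, known to stabilise Trpv5 in the membrane, was lower (-0.80, adjusted p = 8.52e-08; median 385 CPM against 711), as was Vdr (-0.39, adjusted p = 8.05e-06), and Cyp27b1, which makes active vitamin D, was higher (1.18, adjusted p = 4.13e-06). In remission, Cyp27b1 was lower than in nephritic mice (-3.11, adjusted p = 3.22e-06) and Vdr higher (0.43, adjusted p = 0.00370), while Kl was still lower than in young mice (-0.77, adjusted p = 0.00462). Egfr, the receptor of Egf, was lower in remission than in young mice (-0.57, adjusted p = 0.000105), with all 8 below the young range. Per SD of the injury score, 8 of the 43 rose (24.8% of all genes), among them Trpv6 (0.79, adjusted p = 7.73e-09) and Cldn14, a claudin that blocks the Cldn16 pore (0.55, adjusted p = 0.000480), and 23 fell (24.4%), among them Kl (-0.46) and Klhl3 (-0.48). Cldn14 was low throughout, with medians of 0.49 CPM in young and 0.69 CPM in nephritic mice and highest values of 2.90 and 4.72 CPM. Time of day passed for 25 of the 43 in young mice (39.8% of all genes) and for 7 in nephritic mice (21.6%), and the difference in rhythm for 2 (6.27%), Atp2b3 and Slc12a3. Atp2b3 was barely detected, with medians of 0.03 CPM in young and 0.05 CPM in nephritic mice and highest values of 6.12 and 2.16 CPM. The part of adrenal tissue in its calls was not tested. The sodium-chloride cotransporter Slc12a3 of the distal convoluted tubule was lower (-0.31, adjusted p = 0.00481), and 3 of 4 distal convoluted tubule markers were lower, with marker sums of 1202 to 2759 CPM in young and 736 to 2783 CPM in nephritic mice. Of 5 connecting tubule and principal cell markers, Aqp2 was higher, Klk1 was lower and 3 did not pass. These markers summed to 1790 to 3677 CPM in young mice (median 2775) and 1548 to 4028 CPM in nephritic mice (median 2609). Thick ascending limb markers summed to 3707 to 10508 CPM in young, 1570 to 8487 CPM in nephritic and 7678 to 10541 CPM in remission mice; 2 of 5 were lower in nephritic mice, 5 of 5 higher in remission than in nephritic mice, and 5 of 5 fell with the injury score. Leukocyte markers, 6 of 6 higher in nephritic mice, summed to 9.59 to 28.1 CPM in young and 24.8 to 599.6 CPM in nephritic mice, and all 5 proximal tubule markers were lower. No marker was at 0 in all mice of a group, and the part of these shifts in the members' values was not tested.

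Per kilobase of exon in young mice, S100g was the most abundant member (1069 ± 308 CPM per kb, SD, n = 30), then Egf (192 ± 66.8), Calb1 (113 ± 30.6), Casr (22.5 ± 4.53), Slc8a1 (17.03 ± 5.20), Cldn19 (15.1 ± 2.09), Cldn16 (10.9 ± 1.76), Trpm6 (6.76 ± 1.20), Atp2b1 (6.69 ± 1.15) and Trpv5 (5.70 ± 1.33). Neighbours in that order whose intervals of mean ± 1 SD overlapped were Egf and Calb1, Casr and Slc8a1, Slc8a1 and Cldn19, Trpm6 and Atp2b1, and Atp2b1 and Trpv5. Across the 30 young mice, the genes most like Trpv5 by Pearson r among 13851 compared were Wnk1 (0.887), Sfrp1 (0.882) and Slc12a3 (0.877), those most like Trpm6 were Vdr (0.832), Mospd1 and Tdrd3 (0.831 each), and those most like Cldn16 were Hdhd2, Otud6b and Scrn3 (0.790, 0.777 and 0.776). Each point is 1 library, and no test was made.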

How the data were processed

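The authors sequenced poly-A RNA of perfused kidneys, aligned reads to mm10 (the submitters' notes name HISAT) and deposited raw read counts per gene symbol, 1 file per library, for 69 libraries. Versions, annotation and strand are not given in the sources used here, so reads of overlapping genes cannot be told apart. Of 24538 symbols, 15 had empty cells and were left out. Library totals gave the depth, and precision is limited by the number of mice. Groups came from the diagnosis and time labels. From the counts, edgeR 4.0.16 (R 4.3.3) quasi-likelihood tests with TMM scaling were fitted to genes summing to 100 or more across a fit's libraries. They were adjusted by Benjamini-Hochberg over all genes tested, at 0.05. Sequencing set was a covariate. Sets 1 and 2 were inferred from the prefixes of the mouse names in the titles, so they may not match the true sequencing batches. The 4 repeat libraries entered only alternatives. DESeq2 1.42.0, limma 3.58.1, RLE scaling, no filter, no set term, set 2 alone, a cosine of 24 h, and leaving out each mouse were tried, and 2 alternatives (without ZT4, without adrenal-positive libraries) were added after seeing the data. The fits were tested on simulated data with the same spread between mice in every gene and group. That test cannot show how the fits behave where nephritic mice vary more than young mice, as for Trpv5. All 10 members are named, with other pathway genes given by counts and the 3 genes most like each of Trpv5, Trpm6 and Cldn16. The members and the other gene lists were chosen with earlier results of these data known, so their counts are descriptions. Promoters are from RefSeq (GRCm38.p6), and no window was found for Calb1.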

Additional observations from a re-analysis of the deposited data

Results flagged for a closer look

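In 10 of 120 gene-by-group sets of 4 to 7 mice, 1 mouse stood far from the others by Dixon's test, where chance gives about 1 in 20; 20 sets of 3 were not tested. In young mice these were Egf in ZT8LL (1867 CPM), Trpm6 in ZT120 (61.0 CPM), Atp2b1 in ZT16RU (71.5 CPM) and Cldn16 in ZT20RU (11.8 CPM). In nephritic mice they were Calb1 (116 CPM), S100g (175 CPM) and Cldn16 (28.1 CPM) in RX1OLL at ZT4 and Calb1 in RX10RU (165 CPM) at ZT8. In remission they were Slc8a1 (117 CPM) and Cldn16 (20.7 CPM) in s14 at ZT12. The rhythm of young and nephritic mice differed for Calb1 (adjusted p = 0.00958, edgeR), S100g (0.0370), Slc8a1 (0.0313) and Trpm6 (0.0376), and for none of the 10 members without the ZT4 mice. The call of Trpm6 was also lost without the adrenal-positive libraries.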

How the results depend on the processing

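Calls on the level of the members against young mice kept their direction under every alternative, and the lower count ran from 5 to 6. No result that passed in the main fit or in an alternative had opposite signs in the 2. Results that passed in neither could change sign, such as the level of Atp2b1 (-0.04 to 0.07). The counts that moved by over 1.5 times under an alternative setting were these. Higher members fell to 1 without ZT4 (from 2). Members with a difference in rhythm numbered 2 with limma-trend and 0 without ZT4 (from 4). Young members varying with time numbered 1 in the fit of both diagnoses (from 7), and nephritic members 0 with the cosine, 8 in the fit of both diagnoses and 1 without ZT4 (from 5). Remission against nephritic mice gave 2 without s9 and 2 with 3 repeat libraries (from 4), and remission against young mice gave 1 with 4 repeat libraries and 0 with 3 (from 5). Smaller moves reached 17 to 20 time-point calls, 6 for the difference in rhythm, 9 for young time, 6 for remission against nephritic mice and 8 for injury. The cause of these moves was not tested beyond the alternatives' own construction. Shares of all genes passing under each alternative are not given here.

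Leaving out 1 mouse at a time, the counts ranged from 5 to 6 lower, 2 to 2 higher, 17 to 20 of the 60 time-point calls, 1 to 6 for the difference in rhythm, 6 to 8 for young and 2 to 6 for nephritic time, 2 to 5 and 4 to 6 for remission against nephritic and young mice, and 6 to 7 for injury. Difference in rhythm gave 1 without ZT4RU, RX1OLL or RX90 and 2 without ZT40, HIL5RU, RX11LU or RX11RL. Nephritic time gave 2 without RX1OLL or RX12RL and 3 without RX11LU, RX12LU, RX7LU or RX100. Remission against nephritic mice gave 2 without RX11LL, RX11RU, s3, s8 or s9. The remission against nephritic call of Atp2b1 was also lost without RX12RU or s14 and that of Cldn19 without RX10RL, and the remission against young call of Cldn19 without s3, s8, s9 or ZT00. Casr was lower than in young mice without RX11RU, RX12LL, RX90, ZT12LU or ZT40. The ZT16 call of Calb1 was lost without RX7LL, RX9RU, ZT160, ZT16LL or ZT16LU. No paired analysis was possible because the groups share no animals.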
